A study of Mus musculus with 31 samples.

Results

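The expressed genes of mouse chromosome 14 were followed in female dermal fibroblasts that had lost Xist, the noncoding RNA through which female cells silence an X chromosome. Members were chosen by position and summed counts, so that a gene of the exon count table counted as one when its symbol lay on chromosome 14 and its counts summed to at least 1500 over the 6 RNA libraries. By that rule 180 of the 881 chromosome 14 symbols were members, of 24470 symbols in the whole table, and 6317 symbols of other chromosomes reached the same total. All 180 members passed the filter on low counts and were tested. Just inside the threshold stood Sugt1 with a total of 1520, Fut11 with 1520.5 and Tmtc4 with 1523.5 counts, and just outside it stood Slc4a7 with 1498.5, Ccdc66 with 1470 and Tinf2 with 1459 counts.

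RNA was measured in 3 groups of 2 libraries (n = 2 each), which the labels call biological replicates. The line called line 1 here carries a wild-type active X and an inactive X with Xist deleted (XaWT XiΔXist), line 2 is a further cell line of the same genotype (XaWT XiΔXist #2), and WT cells kept Xist. The cells of every group were CAST/Ei x 129/Sv/Jae hybrids cultured untreated, and each Xist-deleted group is 1 cell line, so an effect of the deletion and a trait of that line cannot be told apart. Xist had 1.08 and 0.273 CPM (counts scaled by library size with TMM factors) in line 1, 0.969 and 0.282 CPM in line 2, and 633 and 429 CPM in WT.

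Autosomal genes are carried on a pair of homologous chromosomes, and the RNA of an autosome's genes is known to follow the number of its copies in part, while single genes move further or stay behind through their own regulation. Cultured fibroblast lines are known to gain or lose whole chromosomes over passages. The members have no shared function; chromosome 14 of the mouse carries genes of matrix proteolysis, cell adhesion, chromatin, mitochondria and innate immunity, among others. The copy number of chromosome 14 was not analysed here.

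The libraries held between 3812307 and 7067518 counts used, and replicate 1 was the shallower library in every group. Fibroblast markers summed to 6821 and 4568 CPM in line 1, 6372 and 5272 CPM in line 2, and 6221 and 5255 CPM in WT. The 7 keratinocyte markers summed to 2.36 and 1.84 CPM in line 1, 23.1 and 27.3 CPM in line 2, and 68.7 and 96.1 CPM in WT, with Krt5 and Krt14 at 3 counts or fewer in every library. The 8 melanocyte and Schwann markers summed to 64.0 and 65.7 CPM in line 1, 18.8 and 15.2 CPM in line 2, and 28.3 and 21.1 CPM in WT, with Dct, Tyr, Mlana and Sox10 at 3 counts or fewer throughout. The 5 neuron markers summed to 8.66 and 6.65 CPM in line 1, 14.5 and 15.9 CPM in line 2, and 37.4 and 32.5 CPM in WT, with Nefl and Nefm at 3 counts or fewer throughout. The 6 endothelial markers summed to 2.62 and 3.54 CPM in line 1, 6.44 and 4.88 CPM in line 2, and 12.3 and 10.5 CPM in WT, with Tie1 at 3 counts or fewer. The 6 leukocyte markers summed to 28.9 and 29.7 CPM in line 1, 25.8 and 30.3 CPM in line 2, and 18.0 and 18.4 CPM in WT, with Ptprc and Adgre1 at 3 counts or fewer. Fibroblast markers overlapped between line 1 and WT, while the other lists given here stood apart. The part of their shifts in the results was not tested, and in bulk RNA fewer cells of a type and less RNA per cell cannot be told apart.

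Promoter windows are shown for 4 members that left the level of their chromosome in line 1, 3 of them upward and the last downward. They run from 250 bases before to 50 bases after the RefSeq start (GRCm38.p6, the mm10 build), 5′ to 3′ along the gene, with CpG dinucleotides in capitals. Irf9 encodes the DNA-binding partner of STAT proteins in the interferon-activated complex, and its window at chr14:55603735-55604034 on the plus strand holds 9 CpGs. Rnf31 encodes the catalytic subunit of the linear ubiquitin assembly complex, and its window at chr14:55591492-55591791 on the plus strand holds 17. Ripk3 encodes a kinase of necroptosis, and its window at chr14:55788808-55789107 on the minus strand holds 10. Lmo7 encodes a LIM-domain protein of cell junctions and the actin cytoskeleton, and its window at chr14:101729678-101729977 on the plus strand holds 22.
Irf9: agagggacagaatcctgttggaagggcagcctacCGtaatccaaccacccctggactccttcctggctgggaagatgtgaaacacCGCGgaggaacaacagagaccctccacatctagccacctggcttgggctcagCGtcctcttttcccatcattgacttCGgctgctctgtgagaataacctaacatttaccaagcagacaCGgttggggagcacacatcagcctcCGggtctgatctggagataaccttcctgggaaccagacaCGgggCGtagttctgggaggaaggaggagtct
Rnf31: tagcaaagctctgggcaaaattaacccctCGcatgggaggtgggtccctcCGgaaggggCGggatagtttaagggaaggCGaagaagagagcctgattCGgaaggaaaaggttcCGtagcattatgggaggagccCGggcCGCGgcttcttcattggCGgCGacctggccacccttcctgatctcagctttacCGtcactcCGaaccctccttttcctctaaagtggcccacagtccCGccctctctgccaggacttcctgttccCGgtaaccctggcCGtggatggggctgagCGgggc
Ripk3: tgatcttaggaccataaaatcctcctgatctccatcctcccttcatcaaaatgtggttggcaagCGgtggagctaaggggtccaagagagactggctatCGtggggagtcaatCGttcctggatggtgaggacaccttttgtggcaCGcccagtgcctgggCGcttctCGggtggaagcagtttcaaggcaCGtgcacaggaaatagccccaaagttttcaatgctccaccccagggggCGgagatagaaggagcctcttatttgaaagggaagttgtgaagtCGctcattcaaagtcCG
Lmo7: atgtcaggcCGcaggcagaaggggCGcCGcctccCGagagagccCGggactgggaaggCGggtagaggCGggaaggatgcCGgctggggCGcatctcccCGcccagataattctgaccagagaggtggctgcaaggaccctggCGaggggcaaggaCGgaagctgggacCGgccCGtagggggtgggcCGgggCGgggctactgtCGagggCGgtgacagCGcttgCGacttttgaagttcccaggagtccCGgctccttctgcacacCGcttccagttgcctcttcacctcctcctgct

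Chromosome 14 stood higher in line 1 than in WT as a whole, and line 2 did not share the shift. The members took 2.44% and 2.54% of all counts in line 1, 1.78% and 1.91% in line 2, and 1.86% and 1.94% in WT. Both line 1 libraries lay above all 4 other libraries. The median log2 fold change over the 180 members was 0.40 in line 1 against WT, a 1.32-fold level, with quartiles of 0.23 and 0.62. Each line 1 library set against the mean of the WT libraries gave 0.36 and 0.43, and each set against the WT library of the same replicate number gave 0.41 and 0.37. In line 2 the median was -0.057, a 0.961-fold level, with -0.12 and 0.024 for the single libraries. The shift was the reason the chromosome was looked at, so these medians are a description and carry no test.

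No other chromosome moved as far upward in line 1. Over genes with the same minimum total, the medians of the other autosomes and the X ran from -0.27 on chromosome 7 to 0.16 on chromosome 1 in line 1. In line 2 all chromosomes other than 14 ran from -0.29 on chromosome 7 to 0.20 on chromosome 16. All 12910 genes tested had a median of 0.005 in line 1, which TMM scaling holds near 0 by construction. With the scaling factors computed without chromosome 14 and the X, the chromosome 14 median in line 1 was 0.41.

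**Figure D1:**
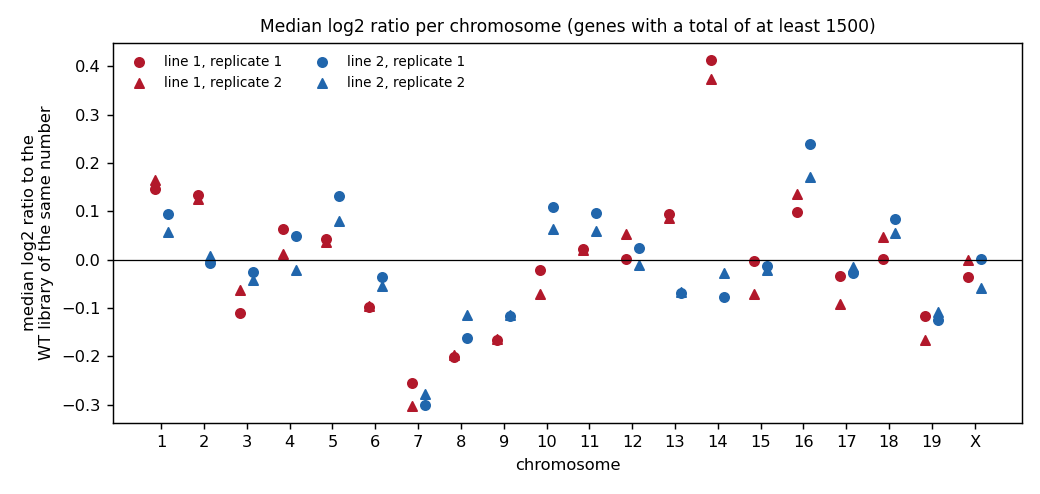
Median log2 ratio of each chromosome's genes with a total of at least 1500 counts (y axis) by chromosome (x axis), with each line 1 library (red) and line 2 library (blue) set against the WT library of the same replicate number. Chromosome 14 stands at 0.41 and 0.37 in line 1, above every other point, and at -0.076 and -0.028 in line 2.

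The shift ran through most members. In line 1, 161 of the 180 members (89.4%) had a positive log2 fold change, against 46.0% of the 6317 genes of other chromosomes with the same minimum total. Both line 1 libraries lay above both WT libraries for 119 members (66.1%), against 20.5% of those other genes, and both lay below for 6 members. In line 2, 63 of 180 members (35.0%) were positive, against 48.6% of those other genes. Both line 2 libraries lay above both WT libraries for 22 members and below for 43. For those line 2 counts, and for the 6 members below WT in line 1, the share of other genes was not computed. Line 1 fold changes of 1.5 or more were reached by 52 members and of 2 or more by 14, while 19 members were under 1. Around the median of 0.40, 115 members (63.9%) lay within 0.3 log2 units.

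**Figure D2:**
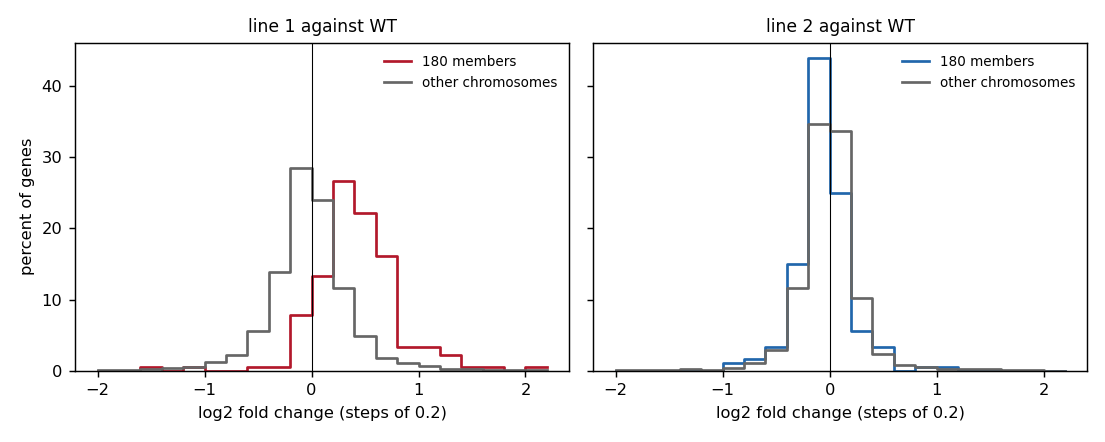
Percent of genes (y axis) by log2 fold change in steps of 0.2 (x axis) for line 1 against WT (left) and line 2 against WT (right), for the 180 members (coloured) and the 6317 genes of other chromosomes with the same minimum total (grey); 1 member and 124 other genes in line 1, and 23 other genes in line 2, lie outside the axis. In line 1 the members' curve sits to the right of the grey one, with medians of 0.40 and -0.024, and in line 2 both peak near 0.

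The total that chose the members includes the line 1 libraries, so a gene raised there passed it more easily. Of chromosome 14, 163 genes had at least 500 counts in the line 2 libraries alone, all of them members, and their median in line 1 was 0.38, with 89% positive. The same choice on other chromosomes took 6432 genes with a median of -0.031 and 45% positive. The 242 tested chromosome 14 genes under the threshold had a median of 0.60 in line 1, against 0.030 for 6171 genes under it elsewhere. The filter on low counts could pass a gene on the line 1 libraries alone, so these genes are not free of that choice either.

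Gene by gene, fewer members passed the test than stood above WT. With edgeR's quasi-likelihood test and Benjamini-Hochberg adjustment over all 12910 genes, 41 members passed an adjusted p of 0.05 in line 1 against WT, 38 higher and 3 lower. That was 22.8% of the members, against 14.3% of all genes tested (6.75% higher and 7.55% lower) and 9.94% of the other genes with the same minimum total. The 38 higher members were 21.1% of the members, against 4.54% of those other genes. With replicate number as a block, 115 members passed (63.9%), 111 higher and 4 lower, against 32.4% of all genes tested in that fit. Fewer than 41 passed without WT replicate 1 or 2, and the share of all genes called was not computed for those fits. Without line 2 replicate 1 or 2, libraries that this contrast does not compare, fewer also passed, and the cause was not tested. The 8 members called in all 6 fits that left out a library were Dock5, Egr3, Plau, Ripk3 and Slc25a37, which were higher, and Gpc6, Lmo7 and Nid2, which were lower.

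In line 2 against WT, 6 members passed (3.33%), against 3.58% of all genes tested (1.73% higher and 1.85% lower). Ripk3 was the only one higher, and Lmo7, Sorbs3, Ktn1, Ptprg and Tep1 were lower. With the block, 17 members passed (9.44%), 7 higher and 10 lower, against 12.1% of all genes tested in that fit. When any 1 line 2 or WT library was left out none of the 180 members passed in edgeR, although 8 to 11 of them had an unadjusted p under 0.05, and DESeq2 on all libraries called 6. Line 2 minus line 1, the test of the difference between the lines, called 48 members (26.7%), 3 higher in line 2 and 45 lower, against 12.6% of all genes tested (6.87% higher and 5.76% lower). The median difference over all 180 members was -0.46. With the block 124 members passed (68.9%), 6 higher and 118 lower, against 27.2% of all genes tested in that fit. Fewer than 48 passed without either line 2 library or either WT library. The share of all genes called was not computed for any fit that left out a library. The 7 called in all 6 fits that left out a library were Dock5, Egr3, Lgals3, Slc25a37, Spry2 and Tep1, which were lower in line 2, and Nid2, which was higher.

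To find the genes that left the level of their chromosome, each gene's line 1 value was also fitted relative to the median of its own chromosome, so that a departure of 0 means a member moved by 0.40 like the chromosome as a whole. By this fit 16 members departed at an adjusted p under 0.05 (8.89%), 10 higher and 6 lower, against 12.8% of all genes tested (5.95% higher and 6.84% lower) and 8.45% of the other genes with the same minimum total. The share of departing members was thus near the background. Line 1 counts are part of the total that chose the members, so a gene departing upward passed it more easily. The split of 10 higher and 6 lower is therefore no evidence of direction. Egr3, Gpc6, Lmo7 and Nid2 passed in all 15 alternative fits of the departure. Without WT replicate 1, 4 of the 16 still passed and without WT replicate 2, 5 did. With the block all 16 passed, among 47 members in all (26.1%), against 27% of all genes tested in that fit.

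**Figure D3:**
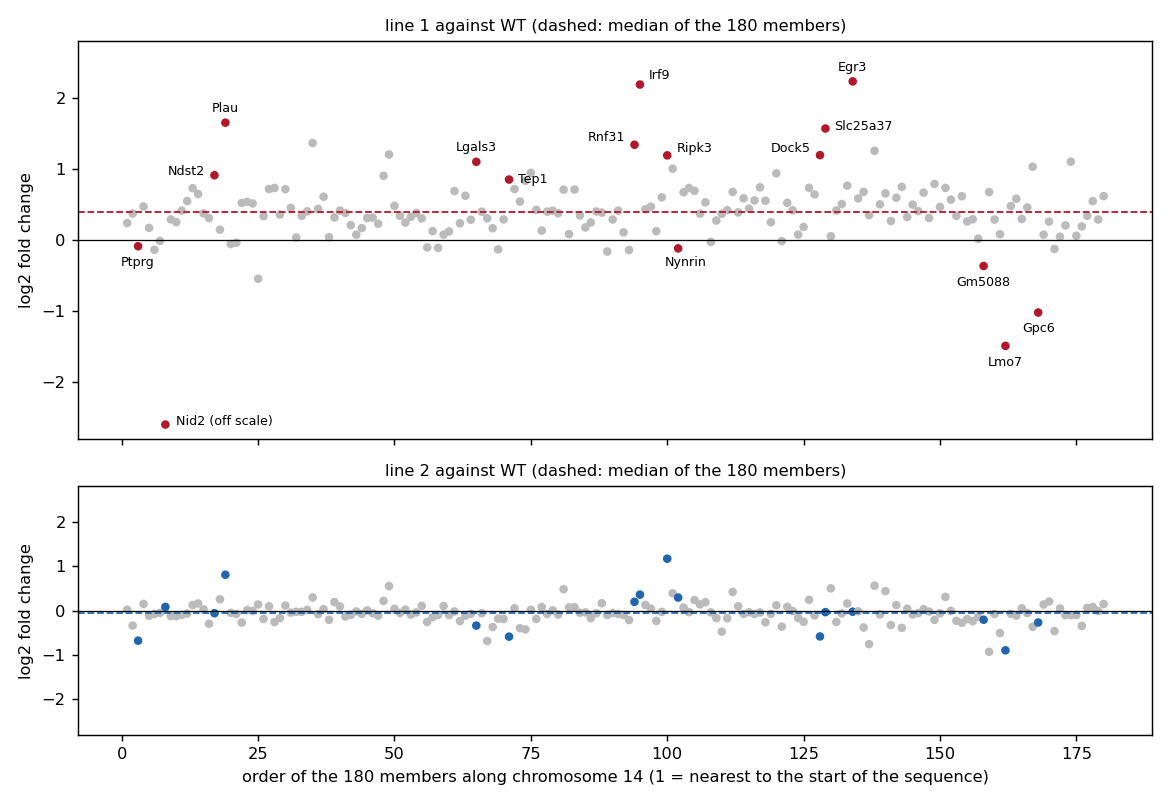
Log2 fold change against WT (y axis) of the 180 members in their order along the chromosome (x axis), for line 1 (upper) and line 2 (lower); dashed lines mark the medians of 0.40 and -0.057, and coloured points are the 16 members that departed in line 1, with Nid2 at -4.85 drawn at the edge. The line 1 points lie above 0 along nearly the whole order, with departing members among them.

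The departures upward were led by a transcription factor and an interferon-response gene. Much of the total that made both genes members came from line 1. Egr3, a zinc-finger transcription factor of the immediate-early class at chr14:70077445-70082613, had 125 and 100.2 CPM in line 1, 21.6 and 25.1 CPM in line 2, and 19.2 and 28.0 CPM in WT. Both line 1 libraries stood above all 4 others, which overlapped. Its log2 fold change in line 1 was 2.24 (SE 0.23, adjusted p = 0.00237), and its departure was 1.84 (SE 0.23, adjusted p = 0.0044). Irf9, at chr14:55603985-55610030, had 192 and 109 CPM in line 1, 51.6 and 33.4 CPM in line 2, and 36.9 and 29.1 CPM in WT. Line 1 again lay above the rest, and the line 1 libraries differed from each other more than the WT libraries did. Its log2 fold change in line 1 was 2.19 (SE 0.34, adjusted p = 0.00999) and its departure 1.80 (SE 0.34, adjusted p = 0.02). Its departure was not called without WT replicate 1 or WT replicate 2, the highest adjusted p being 0.127.

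Irf9 was the only member among 28 interferon-stimulated genes. On other chromosomes 22 of the 24 tested genes of that list were higher in line 1 at an adjusted p under 0.05 and none lower, with a median log2 fold change of 4.79, beside 0.005 for all genes tested. In line 2 none of the 24 was called by edgeR, with a median of 1.40. The list was chosen with the response of line 1 already known, so its count is no independent evidence of direction. Rnf31 directly precedes Irf9 on the same strand, at chr14:55591790-55603671, and had 105 and 75.7 CPM in line 1, 35.4 and 45.4 CPM in line 2, and 33.3 and 37.3 CPM in WT. Both line 1 libraries were above the others, with a departure of 0.95 (SE 0.22, adjusted p = 0.0373) that was lost when WT replicate 1, WT replicate 2, line 1 replicate 1 or either line 2 library was left out.

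Psme1 and Psme2, the subunits of the proteasome activator that interferon induces, lie before Rnf31 and were below the threshold. Psme2 had 13.8 and 7.92 CPM in line 1, 6.06 and 4.37 CPM in line 2, and 3.28 and 3.20 CPM in WT, with a log2 fold change of 1.71 in line 1 (adjusted p = 0.0326). Psme1 had 87.6 and 38.2 CPM in line 1, 37.8 and 26.5 CPM in line 2, and 32.3 and 19.4 CPM in WT, and its log2 fold change of 1.28 did not pass (adjusted p = 0.125). Ripk3, at chr14:55784995-55788857, had 106 and 93.4 CPM in line 1, 101 and 95.2 CPM in line 2, and 44.7 and 42.6 CPM in WT. Here both lines stood above WT without overlap, with log2 fold changes of 1.19 in line 1 (SE 0.13, adjusted p = 0.00281) and 1.17 in line 2 (SE 0.13, adjusted p = 0.0115). The lines differed by -0.023 (line 2 minus line 1, SE 0.13, adjusted p = 0.951), while the chromosome median was positive in line 1 alone. Its departure of 0.80 (adjusted p = 0.0119), and its line 2 call, were lost without WT replicate 1 or WT replicate 2, and the line 2 call also without either line 2 library.

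Plau, Slc25a37 and Dock5 also departed upward. Plau, the secreted urokinase plasminogen activator at chr14:20836662-20843388, had 140 and 165 CPM in line 1, 79.2 and 90.7 CPM in line 2, and 37.6 and 58.7 CPM in WT. The 3 groups did not overlap, line 1 being highest and WT lowest, and the log2 fold change was 1.65 in line 1 (SE 0.23, adjusted p = 0.00644) and 0.81 in line 2 (SE 0.23, adjusted p = 0.144). Its departure of 1.26 (adjusted p = 0.0164) just missed the threshold without WT replicate 1 (adjusted p = 0.0548), the highest of its alternatives, and passed in the others. Slc25a37, the mitochondrial iron importer mitoferrin at chr14:69241851-69285103, had 105 and 139 CPM in line 1, 36.6 and 43.7 CPM in line 2, and 40.9 and 41.6 CPM in WT. Line 1 stood above line 2 and WT, which overlapped, with a departure of 1.18 (SE 0.18, adjusted p = 0.01).

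Dock5, a guanine nucleotide exchange factor for Rac and the member before Slc25a37, had 278 and 288 CPM in line 1, 70.5 and 93.6 CPM in line 2, and 120 and 127 CPM in WT. Line 1 was above and line 2 below WT without overlap. The log2 fold change was 1.20 in line 1 (adjusted p = 0.00493) and -0.58 in line 2 (adjusted p = 0.125), and line 2 minus line 1 was -1.78 (SE 0.16, adjusted p = 0.0016). Tep1, a telomerase-associated protein of the vault particle, had the same order, with 147 and 144 CPM in line 1, 53.3 and 53.7 CPM in line 2, and 79.6 and 81.1 CPM in WT. It was called higher in line 1 (log2 fold change 0.85, adjusted p = 0.00455) and lower in line 2 (-0.59, adjusted p = 0.0453), and line 2 minus line 1 was -1.44 (SE 0.11, adjusted p = 0.000918). The departures of Slc25a37 and Dock5 were lost without WT replicate 1 or WT replicate 2, and the line 2 call of Tep1 was lost in DESeq2 (adjusted p = 0.0577).

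Lgals3, the sugar-binding lectin galectin-3, had 149 and 120 CPM in line 1, 43.9 and 54.8 CPM in line 2, and 58.6 and 66.4 CPM in WT. Ndst2, an enzyme that sulfates heparan sulfate and heparin, had 87.8 and 83.3 CPM in line 1, 42.6 and 44.4 CPM in line 2, and 46.0 and 44.8 CPM in WT. Line 1 was above the other libraries for both genes. Their departures of 0.71 (adjusted p = 0.0495) and 0.52 (adjusted p = 0.0456), and that of Tep1 at 0.46 (adjusted p = 0.0397), lay close to the threshold and each passed in 1 of the 6 fits that left out a library.

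Downward, Nid2 departed furthest. It encodes nidogen-2, a basement membrane glycoprotein, and lies at chr14:19751257-19811787. Nid2 had 12.7 and 2.59 CPM in line 1, 206 and 198 CPM in line 2, and 209 and 173 CPM in WT. Line 1 lay far below the other libraries, and line 2 and WT overlapped. Its log2 fold change was -4.85 in line 1 (SE 0.55, adjusted p = 0.00325) and 0.083 in line 2 (SE 0.42, adjusted p = 0.983), and line 2 minus line 1 was 4.94 (SE 0.55, adjusted p = 0.00334). The gene 2700060E02Rik overlaps 386 of the 60530 bases that Nid2 spans, on the opposite strand. With the strand setting of the counting not stated, reads within that overlap cannot be told apart.

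Lmo7, at chr14:101729928-101934693, had 46.8 and 45.7 CPM in line 1, 67.4 and 72.2 CPM in line 2, and 120 and 140 CPM in WT. All 3 groups were apart, with line 1 lowest. It fell in both lines, with a log2 fold change of -1.49 in line 1 (SE 0.13, adjusted p = 0.00158) and -0.90 in line 2 (SE 0.13, adjusted p = 0.024), and line 2 minus line 1 was 0.60 (SE 0.13, adjusted p = 0.0365), a difference that missed the threshold whichever library was left out (adjusted p 0.0503 to 0.257). Its line 2 call was lost without either line 2 library or either WT library (highest adjusted p = 0.208). Gpc6, a cell-surface heparan sulfate proteoglycan of the glypican family, had 85.4 and 71.0 CPM in line 1, 131.3 and 131.3 CPM in line 2, and 157 and 159 CPM in WT. The groups again did not overlap, and the log2 fold change of -1.02 in line 1 (SE 0.13, adjusted p = 0.00441) passed while that of -0.27 in line 2 did not (adjusted p = 0.41). The difference, line 2 minus line 1, was 0.75 (SE 0.13, adjusted p = 0.0134), and was lost without either line 2 library (highest adjusted p = 0.0969).

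The other 3 members that departed downward were not called against WT in line 1. Ptprg, a receptor-type tyrosine phosphatase, had 117 and 118 CPM in line 1, 78.5 and 77.4 CPM in line 2, and 131 and 118 CPM in WT. Line 1 lay just under both WT libraries and line 2 well under them, with a departure of -0.48 (adjusted p = 0.0386) and a log2 fold change of -0.68 in line 2 (SE 0.11, adjusted p = 0.0336). Nynrin had 108 and 90.8 CPM in line 1, 135 and 129 CPM in line 2, and 110 and 104 CPM in WT, and its departure was -0.51 (adjusted p = 0.0497). The predicted gene Gm5088, which the naming rule leaves out, had 108 and 114 CPM in line 1, 126 and 124 CPM in line 2, and 144 and 144 CPM in WT, with a departure of -0.76 (adjusted p = 0.00603). Both line 1 libraries of Gm5088 lay below both WT libraries, with a log2 fold change of -0.37 that did not pass (adjusted p = 0.0652). The departures of Ptprg and Nynrin each passed in 1 of the 6 fits that left out a library, and that of Gm5088 in 4, missing it without WT replicate 1 or WT replicate 2.

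**Figure D4:**
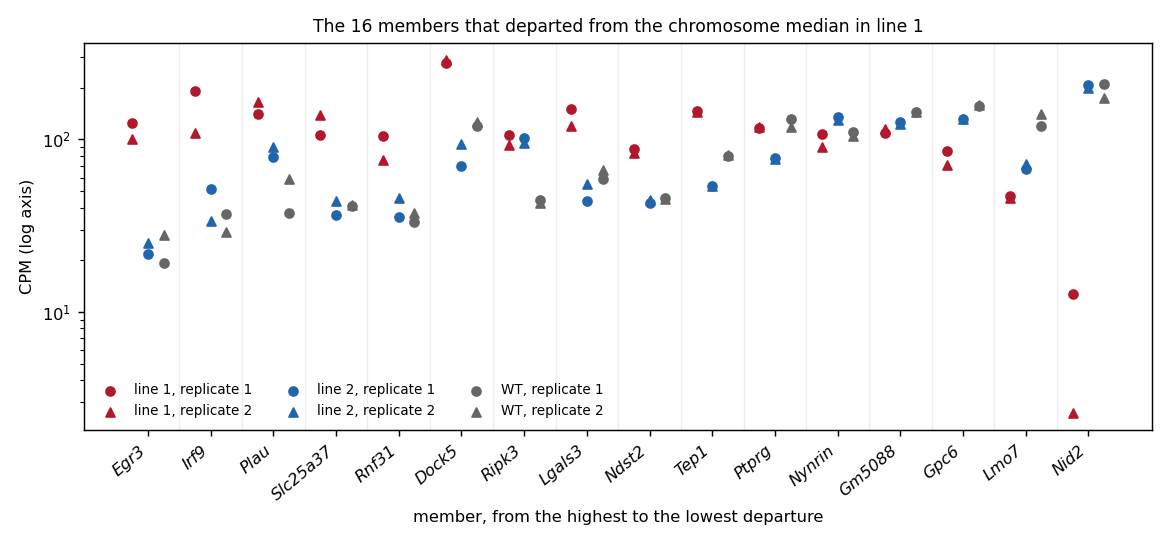
CPM on a log axis (y axis) of the 16 departing members (x axis, from the highest to the lowest departure) in line 1 (red), line 2 (blue) and WT (grey), with circles for replicate 1 and triangles for replicate 2. Line 1 stands above WT for the 10 members on the left and below or among WT for the 6 on the right, down to 12.7 and 2.59 CPM for Nid2.

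Several of the members with the most counts had a log2 fold change in line 1 under the chromosome median. Nisch, an integrin-binding protein, was at 0.17 (adjusted p = 0.68), Mmp14, a membrane-bound collagenase, at 0.18 (adjusted p = 0.727), and Dpysl2, a tubulin-binding protein, at 0.18 (adjusted p = 0.572). Vcl, the focal adhesion protein vinculin, was at -0.055 (adjusted p = 0.879), with 352 and 428 CPM in line 1, 372 and 411 CPM in line 2, and 374 and 437 CPM in WT. Its libraries followed replicate number more than group. Bmp1, a procollagen C-proteinase, was at 0.66 (adjusted p = 0.0756), and passed with the block and in DESeq2. Dlg5, a polarity scaffold, was at 0.34 (adjusted p = 0.0989). Arhgef40, a guanine nucleotide exchange factor, was called higher, at 0.95 (adjusted p = 0.0223), and was lost without WT replicate 1 or WT replicate 2 (highest adjusted p = 0.136). Arhgef40 overlaps Gm16617 over 2441 bases and Zfp219 over 171 bases, both on the opposite strand.

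Median log2 fold changes in line 1 were larger in the classes with fewer counts. From low to high total, the median log2 fold change in line 1 of the tested chromosome 14 genes was 0.66 under 250 counts (68 genes), 0.66 from 250 to 500 (39 genes), 0.56 from 500 to 1500 (135 genes), 0.41 from 1500 to 5000 (149 genes) and 0.25 at 5000 or more (31 genes). Genes of other chromosomes were at -0.041, 0.085, 0.039, -0.00041 and -0.076 in the same classes. These totals include line 1, and the filter on low counts could pass a gene on line 1 alone. The members split in 3 equal groups of 60 by their level in line 2, which the line 1 contrast does not use, had medians of 0.49, 0.43 and 0.29 from the lowest to the highest. Per kilobase of transcript the same split gave 0.55, 0.42 and 0.25, against 0.055, -0.016 and -0.075 on other chromosomes.

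The step between the class of 500 to 1500 counts and the class of 5000 or more was 0.31 on chromosome 14 in line 1. On the other chromosomes it ran from -0.16 on chromosome 18 to 0.26 on chromosome 13. In line 2 the step on chromosome 14 was 0.067. By transcript length the medians of the 3 equal groups of members were 0.39, 0.41 and 0.39 from short to long, and by strand they were 0.35 for 89 plus-strand and 0.41 for 91 minus-strand members.

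**Figure D5:**
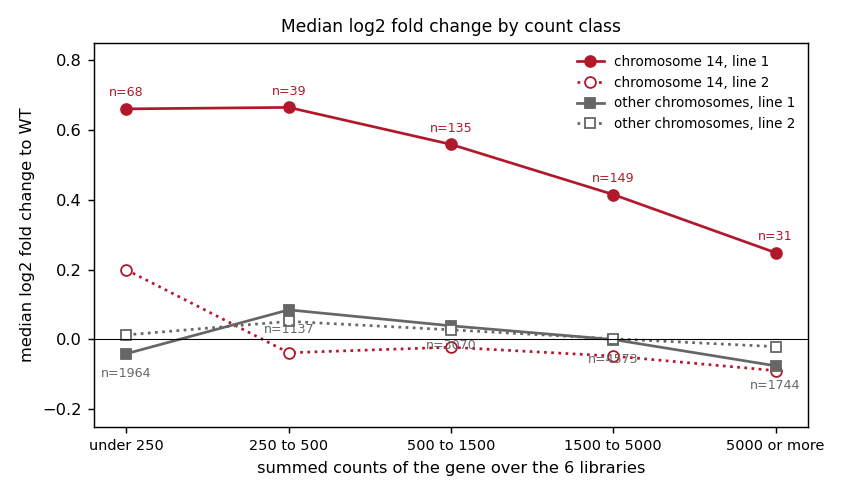
Median log2 fold change to WT (y axis) by the summed counts of a gene over the 6 libraries (x axis) for chromosome 14 (red) and other chromosomes (grey), in line 1 (solid) and line 2 (dotted), with the number of genes beside each line 1 point. The chromosome 14 line falls to 0.25 in the highest class and lies above the grey line in every class in line 1.

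Along the chromosome the shift was broad. In windows of 10 Mb, line 1 medians of the members were 0.43 from 20 to 30 Mb (28 members), 0.32 from 30 to 40 Mb (19), 0.24 from 40 to 50 Mb (13), 0.41 from 50 to 60 Mb (44), 0.52 from 60 to 70 Mb (21) and 0.58 from 70 to 80 Mb (22). Of the 241 windows on other chromosomes with at least 5 genes, none reached 0.3, and they ran from -0.46 to 0.29. On chromosome 14 the medians stayed near or under 0 in line 1 from 10 to 20 Mb (-0.049, 6 members), from 80 to 90 Mb (0.018, 3 members) and from 110 to 120 Mb (0.047, 5 members). With all tested genes these windows were at 0.20 (19 genes), 0.018 (5 genes) and 0.076 (9 genes), so few genes stand behind each. The last window, from 120 to 130 Mb, was at 0.32 (8 members).

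Departing members lay along much of the chromosome, although Rnf31, Irf9, Ripk3 and Nynrin all lay within chr14:55591790-55874736. Nynrin departed downward and the others upward. A departure of more than 0.5 either way was seen in 30 members, 18 higher and 12 lower, and no run of 3 or more neighbouring members departed the same way. There were 4 runs of 2, all upward: Btd with Ankrd28, Rnf31 with Irf9, Ripk3 with Nfatc4, and Dock5 with Slc25a37. Of the 16 departing members 4 had a departing neighbour among the members. The 26 neighbours that did not depart had a median log2 fold change of 0.39 in line 1, and 23 of them were positive. Choosing neighbours that did not depart keeps their median near that of the chromosome, so it says nothing about position. Nid2 lies between Nr1d2 and Ecd, with departures of -0.41 (adjusted p = 0.514) and -0.10 (adjusted p = 0.76), and Lmo7 follows Klf5, whose departure was -0.31 (adjusted p = 0.288).

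By role, line 1 medians of lists with at least 5 members ran from 0.092 for focal adhesion and actin to 0.66 for matrix processing. The lists were drawn up with earlier results of these data known, and their medians stand beside 0.40 for all members and 0.005 for all genes tested in line 1. Their counts of calls stand beside 21.1% of all members called higher in line 1, and 6.75% of all genes tested called higher and 7.55% called lower. Of 22 nuclear regulators 4 were called higher (18.2%) and none lower, with a median of 0.39 and 21 positive. The remodeler subunit Pbrm1 was at 0.21 (adjusted p = 0.485) and the helicase Chd8 at 0.41 (adjusted p = 0.057). Nfatc4, a calcineurin-dependent transcription factor, was called at 1.01 (adjusted p = 0.0486), the ETS factor Elf1 at 0.62 (adjusted p = 0.0384) and the RNA-binding protein Rbm26 at 0.46 (adjusted p = 0.0445). Of 16 secretory pathway members 2 were called higher (12.5%), Lgals3 and the small GTPase Rap2a at 1.10 (adjusted p = 0.047), with a median of 0.30. The import receptors Ipo5 and Ipo4 were at 0.060 (adjusted p = 0.852) and 0.43 (adjusted p = 0.0711), and the chaperone Dnajc3 was at 0.047 (adjusted p = 0.891). Of these calls those of Lgals3, Nfatc4, Elf1 and Rap2a were lost without WT replicate 1 or WT replicate 2 (highest adjusted p 0.0838, 0.224, 0.206 and 0.231), and that of Rbm26 whichever library was left out. Nfatc4 and Elf1 were also lost without line 1 replicate 1 or either line 2 library, and Rap2a without line 1 replicate 2.

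Of 10 metabolic and mitochondrial members 2 were called higher (20%, against 6.75% of all genes tested), Slc25a37 and the mitophagy receptor Bnip3l at 0.74 (adjusted p = 0.0222), with a median of 0.43. Tkt, the transketolase of the pentose phosphate pathway, was at 0.040 (adjusted p = 0.944) and Glud1, the mitochondrial glutamate dehydrogenase, at 0.34 (adjusted p = 0.103). Of 12 signalling members 4 were called higher (33.3%) and 1, Gpc6, lower (8.33%, against 7.55% of all genes tested), with a median of 0.34. Wnt5a, a ligand of noncanonical Wnt signalling, had 115 and 134 CPM in line 1, 43.6 and 74.3 CPM in line 2, and 37.4 and 58.7 CPM in WT, line 1 lying above the rest. Its log2 fold change in line 1 was 1.37 (SE 0.31, adjusted p = 0.0339), and its departure of 0.97 was not called (adjusted p = 0.103). Spry2, an inhibitor of receptor tyrosine kinase signalling, was called at 1.03 (adjusted p = 0.0148), Ripk3 at 1.19 and the death receptor Tnfrsf10b at 0.51 (adjusted p = 0.0466). The calls of Bnip3l, Wnt5a, Spry2 and Tnfrsf10b were lost without WT replicate 1 or WT replicate 2 (highest adjusted p 0.182, 0.163, 0.0947 and 0.266). Bnip3l and Tnfrsf10b were also lost without either line 2 library, Tnfrsf10b without line 1 replicate 1 and Wnt5a without line 1 replicate 2.

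Of 5 matrix-processing members 2 were called higher (40%, against 6.75% of all genes tested and 21.1% of all members), Plau and the lysosomal protease Ctsb at 0.74 (SE 0.14, adjusted p = 0.02), with a median of 0.66. That of Ctsb was lost without WT replicate 1, WT replicate 2 or line 2 replicate 1 (highest adjusted p = 0.143), and the gene overlaps Fdft1 over 773 bases on the opposite strand. The lysyl oxidase Loxl2 was at 0.054 in line 1 (adjusted p = 0.842) and at 0.50 in line 2 (adjusted p = 0.0922). On other chromosomes 2 of 17 tested genes of that list were called higher and 3 lower, with a median of -0.12. Of 6 focal adhesion and actin members 1, the annexin Anxa11, was called higher (16.7%) and 1, Lmo7, lower (16.7%, against 7.55% of all genes tested), with a median of 0.092, and on other chromosomes edgeR called none of 11 in line 1. The call of Anxa11 was lost without either line 2 library or either WT library (highest adjusted p = 0.17). The proteasome members Psmc6 and Psmd6 were at 0.13 (adjusted p = 0.805) and 0.17 (adjusted p = 0.549), and the BMP receptor Bmpr1a was at 0.25 (adjusted p = 0.486).

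In line 2 the members that passed were of mixed roles, and 5 of the 6 were lower. Sorbs3, the vinculin-binding adaptor vinexin, had 83.1 and 94.3 CPM in line 2, 212 and 172 CPM in line 1, and 152 and 149 CPM in WT. Line 2 lay under both other groups, with a log2 fold change of -0.76 against WT (adjusted p = 0.0461), while line 1 was at 0.35 (adjusted p = 0.165). Ktn1, the kinesin-binding membrane protein kinectin, was at -0.69 in line 2 (adjusted p = 0.0465) and 0.31 in line 1 (adjusted p = 0.178), with line 2 minus line 1 at -0.99 (adjusted p = 0.00567). Pcdh9, a protocadherin of cell adhesion, had 35.4 and 59.6 CPM in line 2 and 135 and 157 CPM in line 1, with 61.9 and 120 CPM in WT. The lines did not overlap, and their difference of -1.61 passed (adjusted p = 0.0376) although neither line passed against WT (adjusted p = 0.316 in line 2 and 0.286 in line 1). That difference was lost without line 1 replicate 2 or either line 2 library (highest adjusted p = 0.175), and the line 2 calls of Sorbs3 and Ktn1 without either line 2 or either WT library (highest adjusted p 0.33 and 0.396).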

How the data were processed

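Each RefSeq transcript has deposited exon values that are expected counts. Per the file headers, HOMER wrote them on mm10 without normalization, in steps of 0.5. The submitters' processing notes also name Trim Galore 0.4.1, TopHat2, SAMtools and bedtools 2.25.0, and per the labels' protocols libraries were made from total RNA after ribosomal RNA depletion and read as 50 bp pairs. No source used here gives the order of steps or the strand setting of the counting. Whole counts had been assumed, so values were rounded, 0.5 upward. Of 28972 transcripts, 1 per symbol was used, the one with the highest total, which dropped 4502. The counts used were 3812307 and 7067518 in line 1, 4194402 and 6965103 in line 2, and 4061287 and 6211342 in WT.

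The groups were fitted together with edgeR 4.0.16 (quasi-likelihood test, R 4.3.3) after TMM scaling, with the filter filterByExpr, a mean per group and 3 residual degrees of freedom, with Benjamini-Hochberg adjustment over the 12910 genes tested and a threshold of 0.05. For the departure, each line 1 offset was shifted by the median log2 fold change of the gene's own chromosome over genes with at least 1500 counts, whose own error the fit does not carry. P-values rest on the spread between the 2 libraries of each group, shared over the groups and in part over genes. The steps were tested on simulated data. Over all tested genes, replicate 1 deviated from replicate 2 alike in each pair of groups (Pearson's r 0.48, 0.50 and 0.54), so same-numbered libraries were taken as paired, although replicate 1 was also the shallower. The calls come from the fit without that pairing, and those of the fit with replicate number as a block stand beside them.

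The members, the gene lists and the tests were chosen with earlier results of these data known. Named genes were the 8 members with the highest totals, up to 10 departures each way with both line 1 libraries on that side, up to 5 calls each way in line 2 and between the lines, and up to 4 members per list by total, without predicted and small RNA symbols. Wnt5a, Spry2, Nfatc4, Elf1, Rbm26, Rap2a, Bnip3l, Anxa11, Psme1, Psme2, neighbours of departing members and Gm5088 were added after their values were seen. Of the members with the highest totals, 1 is not reported here. Promoter windows came from RefSeq (GRCm38.p6) for 125 members, 69.4%, under the 80% set for comparing their sequence, so no such comparison is reported. DESeq2 1.42.0, other scalings, filters, thresholds, transcript choices and leaving out each library were alternatives. Member Gm1821 has more than 1 genome copy and its counts are uncertain. Chromatin files used for other questions hold X-linked sites and were not analysed here.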

Additional observations from a re-analysis of the deposited data

Results flagged for a closer look

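Of the members that the naming rule took, 21 differed between line 2 and line 1 in edgeR's test of that difference at an adjusted p under 0.05. Most were lower in line 2, as the chromosome was, with a median of -0.46 over all 180 members. Egr3 was at -2.26 (log2, line 2 minus line 1), Irf9 at -1.83, Dock5 at -1.78, Slc25a37 at -1.61, Pcdh9 at -1.61, Lgals3 at -1.44, Tep1 at -1.44, Rnf31 at -1.15 and Sorbs3 at -1.11. Ktn1 was at -0.99, Ndst2 at -0.97, Arhgef40 at -0.93, Ctsb at -0.79, Ptprg at -0.59, Tnfrsf10b at -0.57, Farp1 at -0.54, Dlg5 at -0.52 and Slmap at -0.50. In 3 members line 2 was higher, with Nid2 at 4.94, Gpc6 at 0.75 and Lmo7 at 0.60, the last of which was lost whichever library was left out. Dock5, Egr3, Lgals3, Nid2, Slc25a37 and Tep1 were called in all 6 fits that left out a library, and Dlg5, Farp1, Ptprg, Slmap and Tnfrsf10b were lost without either line 2 library or either WT library, Slmap and Tnfrsf10b also without line 1 replicate 1. Arhgef40, Ctsb, Gpc6, Ndst2, Pcdh9 and Rnf31 were lost without either line 2 library, Pcdh9 also without line 1 replicate 2, Irf9 and Ktn1 without line 2 replicate 2, and Sorbs3 without line 2 replicate 1. Spry2 at -1.40, Rap2a at -1.21, Elf1 at -0.89 and Rbm26 at -0.51, named after their values were seen, also passed, and of these Spry2 was called in all 6 such fits. Adjusted p-values ran from 0.000918 for Tep1 to 0.0395 for Slmap.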

How the results depend on the processing

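The chromosome 14 median in line 1 stayed positive in every alternative. It was 0.45 for members of at least 500 counts (315 genes), 0.25 for at least 5000 (31 genes) and 0.34 to 0.45 when a library was left out. In alternatives chosen after seeing the data, it was 0.49 for all 422 tested genes of the chromosome and 0.38 for 163 genes chosen on line 2 counts. For the 164 members that did not depart it was 0.38, which that choice holds near the median of all members. The line 2 median ran from -0.13 to 0.018 when a library was left out. With replicate number as a block, calls were 115 in line 1, 17 in line 2, 124 for line 2 minus line 1 and 47 for the departure, in place of 41, 6, 48 and 16. With only the compared groups in the fit they were 19 in line 1, 21 between the lines and 10 for the departure. At totals of at least 500 they were 75, 12, 78 and 33 of 315 genes. At totals of at least 5000 they were 3, 0, 8 and 1 of 31 genes, the 0 in edgeR and in DESeq2, with 2 of 31 at an unadjusted p under 0.05. Counts at these totals come from the main fit, which called 14.3%, 3.58%, 12.6% and 12.8% of all genes tested. Leaving out a library gave 8 to 47 calls in line 1, 0 to 7 in line 2 (8 to 29 at an unadjusted p under 0.05), 9 to 56 between the lines and 4 to 24 for the departure. DESeq2, the other scalings and the other filters stayed within 1.5 times each count. The share of all genes called was not computed for these fits. It was also not computed with a library left out or with only the compared groups. Of 540 values of named genes under alternatives other than leaving out a library, 499 kept side and direction, 24 lost and 17 gained a call, and none reversed, and of 360 with a library left out 256 kept them, 86 lost and 2 gained a call. The 16 that reversed were of genes uncalled in line 1, whose values with a library left out ran from -0.069 to 0.37 for Nisch, -0.21 to 0.076 for Vcl (0.070 and 0.076 reversed), -0.21 to 0.48 for Mmp14, -0.024 to 0.36 for Dpysl2, -0.22 to 0.38 for Psmc6 (-0.22 and -0.049), -0.0006003 to 0.44 for Bmpr1a, -0.39 to 0.017 for Ajuba, -0.00498 to 0.39 for Pbrm1, -0.27 to 0.30 for Tkt (-0.27 and -0.073), -0.10 to 0.19 for Ipo5, -0.015 to 0.47 for Lrp10 and -0.11 to 0.18 for Dnajc3 (-0.11 and -0.044). The causes of these changes were not tested.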

Other observations

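Some chromosome 14 genes below the count threshold, taken from the same lists, also differed from WT in line 1 or line 2. Gch1, the enzyme that opens tetrahydrobiopterin synthesis, had 58.7 and 52.5 CPM in line 1, 1.21 and 0.282 CPM in line 2, and 4.04 and 1.12 CPM in WT. Line 1 stood above all other libraries, with a log2 fold change of 4.55 (SE 0.55, adjusted p = 0.00393 in edgeR). Il17rd, an inhibitor of growth factor signalling, had 68.7 and 70.7 CPM in line 1, 23.7 and 22.0 CPM in line 2, and 29.3 and 23.4 CPM in WT, with a log2 fold change of 1.41 in line 1 (adjusted p = 0.00397).

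Downward, Fzd3, a Wnt receptor, had 6.49 and 10.8 CPM in line 1, 22.0 and 23.4 CPM in line 2, and 19.7 and 24.3 CPM in WT, line 1 being lowest, with a log2 fold change of -1.32 (adjusted p = 0.0288). Htr2a, a serotonin receptor, was low in both lines, with 0.541 and 3.28 CPM in line 1, 0.242 and 0.282 CPM in line 2, and 10.9 and 15.2 CPM in WT. Mtrf1, a mitochondrial release factor, was low in line 2 alone, with 0.242 and 0.141 CPM in line 2, 5.41 and 7.51 CPM in line 1, and 3.79 and 5.28 CPM in WT, and its log2 fold change against WT was -4.68 in line 2 (adjusted p = 0.0142). These genes were picked after their values were seen.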
